A study of Rattus norvegicus with 8 samples.

Results

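The genes described here encode the proteins that carry glucose into the cell and through glycolysis to lactate, together with the transcription factor gene Hif1a. They were chosen by Ensembl rat gene identifier, Slc2a1 (ENSRNOG00000007284), Hk2 (ENSRNOG00000006116), Gapdh (ENSRNOG00000018630), Tpi1 (ENSRNOG00000015290), Eno1 (ENSRNOG00000017895), Pkm (ENSRNOG00000011329), Ldha (ENSRNOG00000013009) and Hif1a (ENSRNOG00000008292). All 8 had a row among the 26404 genes of the count table, and all 8 passed the expression filter with 14240 genes in all. RNA was sequenced from skin of the dorsal hind paw of Sprague-Dawley rats of 125 to 200 g, which were under urethane anaesthesia. In the burn group (4 libraries) the paw had been immersed in saline at 60 °C for 2 min, a deep partial-thickness burn. In the control group (4 libraries) the opposite paw of a burned rat had been immersed in saline at room temperature for the same time. Every library, control included, comes from an anaesthetised animal with a burn and from skin sampled by a microdialysis probe. How long after the burn the skin was taken is not stated in the labels. No label names the rat of a library or states that replicates are different rats, so the p-values below measure only the spread between these samples, which may be technical.

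Glucose enters most skin cells through facilitative transporters of which GLUT1, encoded by Slc2a1, is the widespread form, and hexokinase traps it by phosphorylation. The lower pathway then converts triose phosphates to pyruvate, and lactate dehydrogenase reduces pyruvate to lactate when oxygen is short or flux is high. HIF-1α, the product of Hif1a, is degraded in oxygenated cells and accumulates in hypoxia, where it activates transcription of many of these genes from short sites with the core ACGTG or GCGTG. Because the protein is controlled mainly by its stability, the level of Hif1a mRNA is not a measure of HIF-1 activity.

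The bases before the start of transcription are shown for the members with the lowest p-values, Slc2a1 and Hif1a, and for Ldha, a classical hypoxia-responsive gene, since those short cores lie there. Each sequence is the 250 bases before a RefSeq start in build GRCr8, read 5′ to 3′ along the gene. Capitals mark every ACGTG or GCGTG on either strand, so that on the other strand they read CACGT or CACGC. The windows are chr5:138002272-138002521 (plus strand) for Slc2a1, chr6:98359648-98359897 (plus strand) for Hif1a and chr1:106507842-106508091 (plus strand) for Ldha.
Slc2a1: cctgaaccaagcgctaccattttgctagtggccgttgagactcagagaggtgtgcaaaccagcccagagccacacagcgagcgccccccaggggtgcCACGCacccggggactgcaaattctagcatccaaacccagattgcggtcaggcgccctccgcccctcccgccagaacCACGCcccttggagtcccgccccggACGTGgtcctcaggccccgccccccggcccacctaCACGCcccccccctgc
Hif1a: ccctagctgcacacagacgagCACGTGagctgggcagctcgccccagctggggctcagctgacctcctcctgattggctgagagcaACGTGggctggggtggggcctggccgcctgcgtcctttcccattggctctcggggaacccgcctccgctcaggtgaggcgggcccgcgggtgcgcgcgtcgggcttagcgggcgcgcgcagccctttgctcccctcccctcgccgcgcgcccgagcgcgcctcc
Ldha: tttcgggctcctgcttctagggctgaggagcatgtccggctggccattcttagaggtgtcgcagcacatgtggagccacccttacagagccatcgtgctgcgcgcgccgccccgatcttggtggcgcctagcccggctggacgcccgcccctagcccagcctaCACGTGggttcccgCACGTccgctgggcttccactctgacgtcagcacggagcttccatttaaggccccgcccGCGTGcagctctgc
The Slc2a1 window held 4 separate marked stretches, that of Ldha 3 and that of Hif1a 2. In Ldha and in Hif1a, 1 stretch is CACGTG, which matches on both strands and is also the E-box that other factors bind. RefSeq promoters were found by symbol for all 8 genes, with 2 starts for Eno1. A core was present in 6 of those 9 windows and for 5 of the 8 genes: Gapdh held 3 stretches, both Eno1 starts 1 each, and Hk2, Tpi1 and Pkm none. Of all 33469 RefSeq promoter windows of that length, 36.7% held a core, and 5.59% held CACGTG. Member windows were 49.6% to 73.6% G or C, against a median of 51.2%, and the cores contain CG, so the shares are not matched on base composition. A match is a description of the letters and does not show a bound site.

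None of the 8 genes passed the test between burned and control skin, in either direction (edgeR quasi-likelihood test, Benjamini-Hochberg adjusted p under 0.05 over all 14240 genes tested). In the same fit 11.9% of all genes tested were called higher in burn and 10.0% lower, 21.9% in all. At an unadjusted p under 0.05, 2 of the 8 genes were lower in burn, Slc2a1 and Hif1a, where 17.4% of all genes tested were lower at that level. DESeq2 put the same 2 below an adjusted p of 0.05 and limma-voom put 0 there, against 13.2% and 11.7% of all genes called lower by those tools. The fitted log2 fold change was negative for 6 of the 8 genes, with a median of -0.17. Over all genes tested it was negative for 46.6%, with a median of 0.064. No gene of the 8 had all burn libraries on one side of all control libraries on the normalised scale, where 15.4% of all genes tested were higher and 15.6% lower without overlap. The 95% intervals of the fold change, burn over control, ran from 0.442 at the lowest bound to 1.62 at the highest. In bulk skin, fewer cells of a type and less RNA per cell cannot be told apart.

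Libraries held 13693811 to 18738652 counts in burn and 17824830 to 26837925 in control. Counts of the 8 genes ran from 354 (Hk2, burn replicate 1) to 7991 (Pkm, control replicate 4). Counting error alone was therefore small, with exact 95% Poisson limits of 318 to 393 for the former and 7817 to 8168 for the latter. These limits cover counting error only. The variation between libraries was larger, with a fitted biological coefficient of variation of 23.6% to 29.8% across the 8 genes. Burn replicate 3 stood apart from the other libraries, with 15354 genes detected against 17322 or more elsewhere. Without burn replicate 3 none of the 8 genes was called either, while 13.3% of all genes tested were called lower and 16.0% higher. The markers of skin, muscle, fat and blood cells could not be matched to the identifiers in the table, so the labelled tissue was not checked here, and other genes of glycolysis and of the HIF pathway were not analysed.

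**Figure D1:**
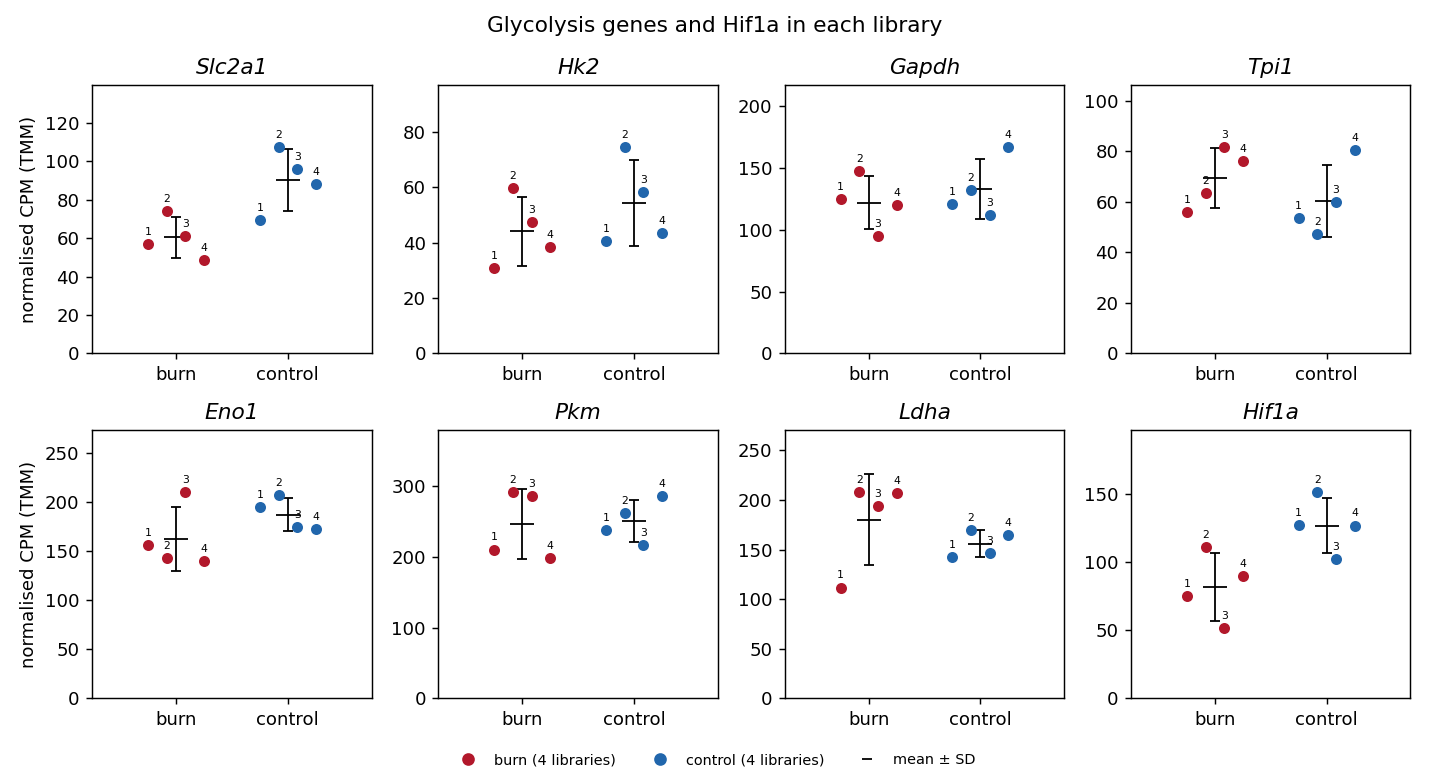
Normalised abundance in CPM, scaled by TMM factors, for each of the 8 genes in 4 burn (red) and 4 control (blue) libraries, with replicate numbers above the points and bars for the mean and SD (n = 4). Slc2a1, Eno1 and Hif1a have 3 of 4 burn libraries below the lowest control library, the fourth for Eno1 lying above the highest, and the groups overlap for every gene. The share of all genes tested with 3 of 4 burn libraries so placed was not computed. All burn libraries lay below all control libraries for 15.6%.

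The way in was represented by Slc2a1, the basal glucose transporter. Its level was 57.2, 74.3, 61.1 and 48.8 normalised CPM (counts scaled by library total and TMM factor) in the 4 burn libraries by replicate number, and 69.2, 108, 95.9 and 88.0 in the 4 control libraries. Burn replicates 1, 3 and 4 lay below every control library, and burn replicate 2 lay above control replicate 1 alone. The means were 60.3 ± 10.6 in burn and 90.1 ± 16.1 in control (SD, n = 4). The fitted fold was 0.669 (log2 fold change -0.58, SE 0.19, 95% interval of the fold 0.496 to 0.903), with an unadjusted p of 0.0142 and an edgeR adjusted p of 0.0589. Of all genes tested, 21.3% had a lower log2 fold change. The adjusted p ranged from 0.0261 to 0.154 over 16 other settings and was under 0.05 in 3 of them, with the DESeq2 Wald test (0.0261), without burn replicate 2 (0.0305) and when libraries were scaled by their totals alone (0.0377). In those settings 13.2%, 12.4% and 15.0% of all genes tested were called lower.

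Hk2, the inducible hexokinase that phosphorylates glucose, had the fewest counts of the 8 and varied widely within both groups. The burn libraries held 30.8, 59.9, 47.6 and 38.3 normalised CPM in replicate order and the control libraries held 40.6, 74.7, 58.3 and 43.6. In both groups replicate 2 was highest, but replicate numbers were given in accession order and pair nothing. The means of 44.1 ± 12.6 and 54.3 ± 15.6 (SD, n = 4) differed by less than the spread of either group. The fitted fold was 0.813, with a 95% interval of 0.536 to 1.23 and an edgeR adjusted p of 0.445. The log2 fold change of -0.30 became -0.11 without control replicate 2, -0.16 without burn replicate 1 and -0.48 without burn replicate 2.

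The lower pathway showed no change in common. Gapdh, the triose phosphate dehydrogenase often used as a loading reference, stood at 125, 147, 95.1 and 120 normalised CPM in burn and 121, 132, 112 and 167 in control. Burn replicate 3 was the only burn library below the lowest control library. The fold was 0.916 (95% interval 0.678 to 1.24, edgeR adjusted p = 0.665). Its log2 fold change of -0.13 became -0.0013 without control replicate 4, -0.027 without burn replicate 3, -0.21 without control replicate 3 and -0.23 without burn replicate 2.

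Tpi1, triose phosphate isomerase, held 55.9, 63.7, 81.8 and 76.3 normalised CPM in burn and 53.8, 47.2, 59.8 and 80.5 in control. The groups overlapped over most of their range, with burn replicate 3 alone above the highest control library. Its fitted fold was 1.15 (95% interval 0.832 to 1.59, edgeR adjusted p = 0.507). Its log2 fold change of 0.20 became 0.092 without control replicate 2, 0.11 without burn replicate 3 and 0.37 without control replicate 4.

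Eno1, the widespread enolase, held 156, 142, 210 and 140 normalised CPM in burn and 195, 207, 174 and 172 in control. Burn replicates 1, 2 and 4 lay below every control library, and burn replicate 3 lay above every control library. The fold over all libraries was 0.868 (95% interval 0.657 to 1.15, edgeR adjusted p = 0.433). Without burn replicate 3 the log2 fold change went from -0.20 to -0.36 with an edgeR adjusted p of 0.0683, which did not pass either.

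Pkm, the muscle-type pyruvate kinase gene whose M2 form is common in proliferating cells, held 211, 292, 287 and 198 normalised CPM in burn and 238, 263, 218 and 286 in control. Burn replicates 2 and 3 lay above every control library, and replicates 1 and 4 lay below all of them. Burn replicate 3 exceeded control replicate 4 by little, at 286.8 against 286.1. That margin is within the 95% Poisson limits of control replicate 4, 2.2% on either side. The means were 247 ± 49.3 and 251 ± 29.6 (SD, n = 4). The fold of 0.983 had a 95% interval of 0.731 to 1.32 (edgeR adjusted p = 0.940), and the sign of its log2 fold change turned in 4 of 16 other settings. The counts are per gene and do not separate the M1 and M2 forms.

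Ldha, the lactate dehydrogenase subunit that favours lactate formation, held 112, 208, 193 and 207 normalised CPM in burn and 142, 170, 147 and 165 in control. Burn replicates 2, 3 and 4 lay above every control library and burn replicate 1 below every one of them. The SD was 46.1 in burn and 13.5 in control (n = 4), a ratio of 3.41, the widest of the 8 genes in this measure. The fold was 1.15 (95% interval 0.824 to 1.62, edgeR adjusted p = 0.515). Without burn replicate 1 the log2 fold change was 0.38, in place of 0.21, with an edgeR adjusted p of 0.134, and it was 0.13 without burn replicate 2 or burn replicate 4.

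Hif1a had the largest fitted change of the 8. It held 75.0, 111, 51.8 and 89.6 normalised CPM in burn and 127, 151, 102 and 127 in control. Burn replicates 1, 3 and 4 lay below every control library, and burn replicate 2 lay above control replicate 3 only. The means were 81.8 ± 24.9 in burn and 127 ± 20.0 in control (SD, n = 4). The fitted fold was 0.646 (log2 fold change -0.63, SE 0.24, 95% interval of the fold 0.442 to 0.944), with an unadjusted p of 0.0284 and an edgeR adjusted p of 0.0925. Of all genes tested, 19.7% had a lower log2 fold change. The adjusted p ran from 0.0155 to 0.214 over 16 other settings and was under 0.05 in the same 3 as for Slc2a1: library totals alone (0.0155), without burn replicate 2 (0.0330) and the DESeq2 Wald test (0.0499).

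**Figure D2:**
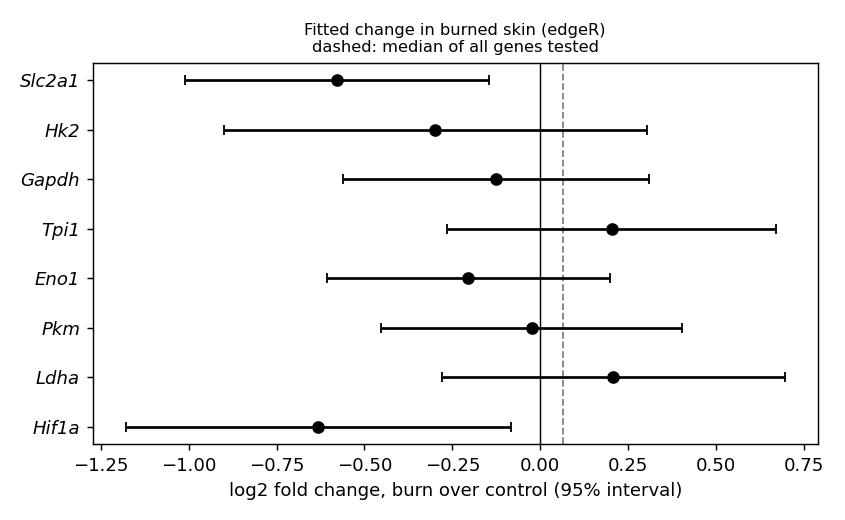
Fitted log2 fold change, burn over control, of the 8 genes with its 95% interval from the edgeR fit of 4 burn and 4 control libraries, and a dashed line at the median of all genes tested, 0.064. The intervals of Slc2a1 and Hif1a lie below 0 before adjustment for the number of genes tested, and the other 6 span 0.

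The scaling of the libraries mattered for these values. The 25 most abundant genes accounted for 43.4%, 44.8% and 41.6% of the reads counted in burn replicates 1, 2 and 4, for 15.1% in replicate 3 and for 23.4% to 27.3% in the control libraries. The TMM factors were 0.843, 0.807 and 0.894 for burn replicates 1, 2 and 4, 1.20 for burn replicate 3 and 1.05 to 1.14 for the controls. As a share of all counts, the 8 genes together made up 0.0691%, 0.0885% and 0.0821% in burn replicates 1, 2 and 4 and 0.123% in replicate 3, against 0.105% to 0.124% in control. In plain CPM, with no TMM factor, all burn values were under all control values for Slc2a1, Gapdh and Hif1a, where 21.6% of all genes tested did so. Slc2a1 then ran from 43.6 to 73.2 in burn and from 73.8 to 116 in control, Gapdh from 105 to 119 and from 127 to 175, and Hif1a from 62.0 to 89.4 and from 116 to 163. The gap for Slc2a1 lay between burn replicate 3 and control replicate 1 and was within their counting error (SE 2.93% and 2.37%). With totals alone the median change over the genes tested, on the log2 scale, moved from 0.064 to -0.15, a shift of -0.21. Relative to that median, the log2 fold change was -0.65 for Slc2a1 and -0.74 for Hif1a, against -0.64 and -0.70 relative to the median with TMM factors. Totals alone also moved the other log2 fold changes, to -0.51 for Hk2, -0.37 for Gapdh, -0.38 for Eno1, -0.22 for Pkm, 0.022 for Tpi1 and 0.0090 for Ldha, and none of these 6 passed. With the 25 most abundant genes left out before TMM scaling, the log2 fold change was -0.58 for Slc2a1 (edgeR adjusted p = 0.0590) and -0.63 for Hif1a (edgeR adjusted p = 0.0926), as large as with them.

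A ratio of counts within a library does not depend on the scaling, although it shows unequal change only. The log2 ratio of Hif1a to Gapdh was -0.74, -0.41, -0.88 and -0.43 in burn and 0.066, 0.20, -0.13 and -0.40 in control. Every burn value lay below every control value, by a margin of 0.0081 between burn replicate 2 and control replicate 4, which is less than the counting error of those ratios (SE 0.047 and 0.032). Of the 14239 other genes tested, 10.4% had a ratio to Gapdh that was lower in every burn library than in every control library. The means were -0.61 ± 0.23 and -0.067 ± 0.26 (SD, n = 4), a difference of -0.54.

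The log2 ratio of Slc2a1 to Gapdh was -1.01 ± 0.28 in burn and -0.56 ± 0.35 in control (SD, n = 4), and the groups overlapped. For Hk2, Tpi1, Eno1, Pkm and Ldha the groups also overlapped, with differences in the log2 ratio, burn minus control, of -0.17, 0.34, -0.094, 0.088 and 0.29, each smaller than the pooled SD within groups. These differences depended on single libraries. The sign turned for Hk2 without burn replicate 1 (0.0043), for Eno1 without burn replicate 2 (0.058) and for Pkm without burn replicate 3 (-0.11). Without burn replicate 3 the difference fell to 0.14 for Tpi1 and 0.13 for Ldha, and for Ldha it was 0.53 without burn replicate 1. The difference for Hif1a stayed between -0.66 and -0.46 with any 1 library left out. Burn replicate 3 had the highest ratio to Gapdh of the burn libraries for Slc2a1, Hk2, Tpi1, Eno1, Pkm and Ldha, and the lowest for Hif1a. The log2 ratio there was 1.14 for Eno1, 1.59 for Pkm and -0.88 for Hif1a. In that library Gapdh itself was at its lowest normalised level of the 8 libraries.

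**Figure D3:**
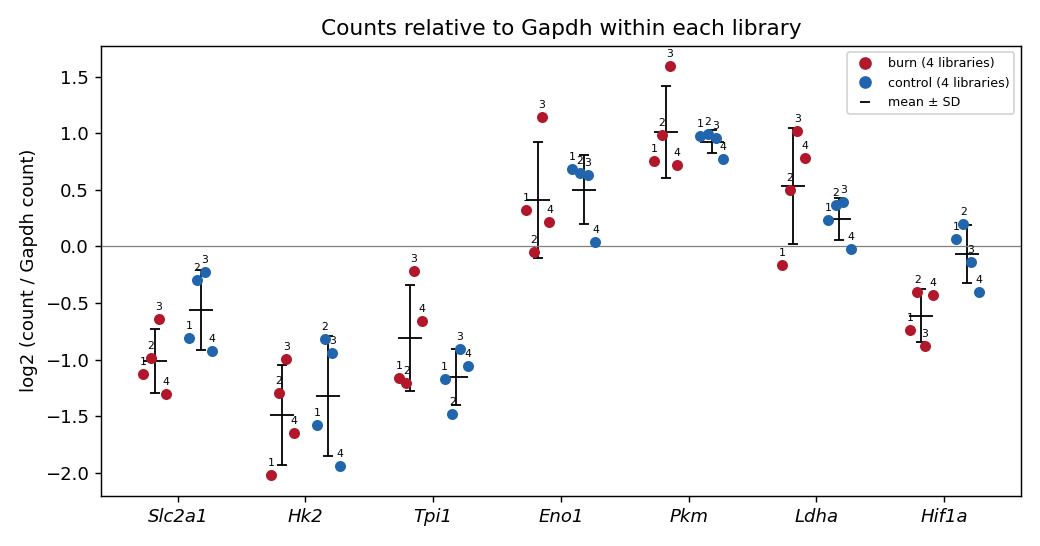
Log2 ratio of each gene's count to the Gapdh count of the same library, for 4 burn (red) and 4 control (blue) libraries, with replicate numbers and bars for the mean and SD (n = 4). Only for Hif1a do the groups not overlap, with burn from -0.88 to -0.41 and control from -0.40 to 0.20, and burn replicate 3 is the highest burn point for the other 6 genes.

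Several of these genes have many pseudogene copies in the rat genome. RefSeq names 81 entries as pseudogenes of Gapdh, 31 of Eno1, 30 of Ldha, 19 of Pkm and 3 of Tpi1, and 0 of Slc2a1, Hk2 or Hif1a. The labels do not state how reads that fit several places were counted. The levels of Gapdh, Eno1, Ldha and Pkm, and so every ratio to Gapdh, are uncertain to that extent.

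The 8 genes did not vary as a block. Across the 28 pairs, the Pearson correlation of log2 CPM over the 8 libraries had a median of 0.26 and ran from -0.53 (Tpi1 with Hif1a) to 0.78 (Slc2a1 with Hk2). After each group's mean was subtracted, the median was 0.22, Slc2a1 with Hk2 was again the highest at 0.83, and Gapdh with Eno1 the lowest at -0.64. Gapdh with Hif1a stood at 0.74 and Hk2 with Ldha at 0.63. These are descriptions over 8 libraries that share their scaling factors. Correlations between pairs of other genes were not computed, so whether these 8 vary together more or less than others is not known. Among burn libraries, replicate 2 held the highest normalised level for 6 of the 8 genes, replicate 3 for the other 2, Tpi1 and Eno1, and replicates 1 and 4 the lowest for 3 genes each. Burn levels of a single gene spanned 1.46-fold (Tpi1) to 2.15-fold (Hif1a).

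Among the 14232 genes tested other than these 8, the pattern most like that of Slc2a1 over the 8 libraries was that of ENSRNOG00000011119 (Pearson r = 0.978), with 2.65 ± 0.13 log2 CPM in burn and 3.02 ± 0.13 in control (SD, n = 4; edgeR adjusted p = 0.197). For Hif1a it was ENSRNOG00000014835 (r = 0.995), with 0.31 ± 2.25 in burn and 3.48 ± 1.14 in control (SD, n = 4, edgeR adjusted p = 0.0913). The log2 fold change of that gene was -2.54, against -0.63 for Hif1a, so the likeness is of order and shape and not of size. Each was picked as the highest of 14232 correlations, and neither identifier could be given a name.

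**Figure D4:**
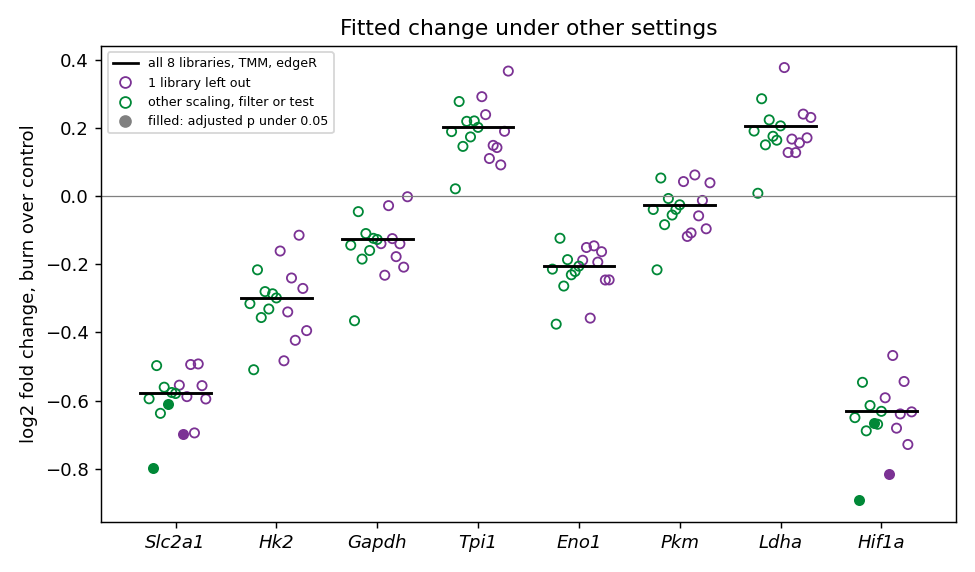
Fitted log2 fold change of each gene, burn over control, under the reported fit (black line) and 16 other settings, with purple for fits that leave out 1 library, green for another scaling, filter or test, and filled points where the adjusted p was under 0.05. Filled points occur for Slc2a1 and Hif1a only, 3 each, and the points of Pkm lie on both sides of 0.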

How the data were processed

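The deposited table holds raw read counts by Ensembl rat gene, as whole numbers with 1 column a library, for 4 burn and 4 control libraries of poly(A)-enriched RNA. Per the submitters' processing notes, the build was Rnor_5.0 and the tools named were edgeR, limma, R 3.0.1, HTSeq 0.5.4p3 and TopHat2 2.0.9. What each did, the annotation release, strand use and the treatment of reads that fit several places are not stated. All rows of the table name a gene.

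Burn was compared with control by edgeR 4.0.16 under R 4.3.3 (quasi-likelihood test, robust dispersions, TMM factors, default expression filter, group alone in the model, Benjamini-Hochberg adjustment over 14240 genes). The standard error is the log2 fold change divided by the square root of F. Log2 CPM carried a prior count of 2. The procedure was tested on simulated data, but the settings and outcome of that test are not given here. No conclusion is drawn from it on the power to find changes as small as those fitted for Slc2a1, Hif1a and the other members. Alternatives used median-ratio, upper-quartile or plain library-size scaling, 2 other filters, DESeq2 1.42.0, limma-voom 3.58.1, removal of the 25 most abundant genes, and each library left out in turn. All members with a row were named, whatever their values. Symbols came with the chosen identifiers, since 0 of 47357 RefSeq entries carry an Ensembl rat identifier. Preset pathway and marker lists could therefore not be matched. The members and lists were chosen with earlier results of these data known.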

Additional observations from a re-analysis of the deposited data

Results flagged for a closer look

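In 30 sets of 4 libraries (each gene's level, and each ratio to Gapdh, in each group) the highest and the lowest value were checked for a gap to the nearest library that takes up most of the range (Dixon's test at 95%). Such a gap was found in 3 of them. By chance about 1 set in 20 shows it when sets are independent, and sets that share Gapdh are not. In burn replicate 1, Ldha was at 6.80 log2 CPM, where the next lowest burn library was at 7.60. In control replicate 4, the log2 ratio of Eno1 to Gapdh was 0.044, against 0.63 or more in the other controls, and that of Pkm to Gapdh was 0.78, against 0.96 or more. Gapdh was at its highest level of the 8 libraries in control replicate 4, at 167 normalised CPM.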

How the results depend on the processing

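No paired analysis was possible because the labels give no animal number and the replicate numbers were given in accession order. Of 128 refitted log2 fold changes of the 8 genes, 118 kept their sign and stayed short of the threshold, 6 kept their sign and passed it (3 each for Slc2a1 and Hif1a) and 4 changed sign. All 4 were Pkm, at 0.054 with upper-quartile factors and, in a range of -0.12 to 0.063 with 1 library left out, at 0.043 without burn replicate 1, 0.063 without burn replicate 4 and 0.040 without control replicate 4. Members called lower numbered 2 with library totals alone, 2 with the DESeq2 Wald test and 0 to 2 with 1 library left out, the 2 without burn replicate 2. Of all genes tested, 15.0% were called lower with library totals alone, 13.2% with DESeq2 and 12.4% without burn replicate 2. Over all genes, library totals alone gave 894 higher in place of 1689 and the DESeq2 Wald test gave 2196 lower in place of 1426. With 1 library left out the higher genes numbered 673 to 2314 and the lower ones 546 to 1929, the fewest without control replicate 2 and the most without burn replicate 3. Both counts also moved by over 1.5 times without burn replicate 1 (1077 and 795), control replicate 1 (811 and 704), control replicate 3 (944 and 842) and control replicate 4 (843 and 680). Refits without a library hold fewer samples. Both counts were above those of the full fit without burn replicate 2 (1858 higher, 1789 lower) or burn replicate 3. What moved the counts was not tested for any setting. Without the 25 most abundant genes, none of the 8 genes was called, and 1683 genes were higher and 1422 lower. With counts of 354 or more for every gene in every library, the spread between libraries and not depth set the precision.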
